A study of Mus musculus with 4 samples.

Results

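The Cyp4a omega-hydroxylases are 6 mouse cytochrome P450 genes, Cyp4a10, Cyp4a12a, Cyp4a12b, Cyp4a14, Cyp4a31 and Cyp4a32, described here on 4 arrays of liver RNA. They were chosen by gene symbol, with earlier results of these arrays known, and each was read from the probe set that carries its symbol alone and has the highest mean over the 4 arrays. Of the 6 genes, 4 had such a probe set (Cyp4a12a, Cyp4a12b, Cyp4a14 and Cyp4a31) among 22180 genes with a probe set of their own. Cyp4a10 and Cyp4a32 appear in the annotation on 2 probe sets that name several Cyp4a genes, so neither has a value of its own. In all, 6 probe sets name a member, and all of them were brighter than the filter on dim genes that 13308 genes passed.

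Cyp4a enzymes sit in the endoplasmic reticulum and oxidise the terminal methyl carbon of medium and long chain fatty acids. The resulting alcohol is oxidised further to a dicarboxylic acid, which peroxisomes shorten by beta-oxidation. In mouse liver Cyp4a10 and Cyp4a14 are classical targets of PPARalpha, the nuclear receptor for fatty acids, and are raised by fasting and by fibrate drugs. Cyp4a12a and Cyp4a12b are known instead for higher expression in males, under androgen and growth hormone, and the Cyp4a12a enzyme omega-hydroxylates arachidonic acid.

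The 4 groups had 1 array each: mice with a conditional liver knockout of MyD88 on high-fat diet (KO high-fat), wild-type mice on high-fat diet (WT high-fat), knockout mice on control diet (KO control) and wild-type mice on control diet (WT control). MyD88 is the adaptor of most Toll-like receptors. All mice were C57Bl6, 16 weeks old and homozygous for floxed MyD88 (MyD88 lox/lox). The KO mice also carried ALB Cre, a recombinase under the albumin promoter, which acts in hepatocytes, so other liver cells keep the gene. The WT mice were floxed mice without Cre, the high-fat diet held 60% fat, the control diet held 9.4% fat, and each array carried pooled RNA of 4 to 5 mice selected for RNA quality. With 1 pooled array per group no difference has a replicate check, an error or a p-value, and the spread between mice is unknown. Values are log2 expression, so a difference of 1 is 2-fold. In bulk liver RNA, fewer cells of a type and less RNA per cell cannot be told apart.

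Several facts of the whole arrays stand beside every result. Hepatocyte markers were present on each array, and the 15 measured markers averaged 11.42 on KO high-fat, 11.42 on WT high-fat, 11.44 on KO control and 11.45 on WT control. Myd88 itself read 6.23 on KO high-fat, 6.44 on WT high-fat, 5.91 on KO control and 6.10 on WT control, lower in KO by -0.21 on high-fat diet and -0.19 on control diet, within the central 95% of genes. Whether its probes lie in the floxed part is not given in the sources used here. The WT control array stood apart from the other 3 in the exocrine pancreas markers and the acute phase genes. Skeletal muscle markers set WT high-fat apart instead, as given below. The 14 exocrine pancreas markers with a probe set averaged 8.20 on KO high-fat, 6.97 on WT high-fat and 7.22 on KO control, against 5.04 on WT control. The acute phase genes also averaged lowest there (10.09 on KO high-fat, 9.95 on WT high-fat, 10.44 on KO control and 9.18 on WT control), so each difference that subtracts this array is set beside the differences that do not.

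Cyp4a14 (probe set 17428457) varied most among the members. It read 9.92 on KO high-fat, 9.15 on WT high-fat, 10.84 on KO control and 11.94 on WT control. Both high-fat arrays were below both control arrays, and the high-fat arrays had the opposite genotype order from the control arrays. Its range of 2.80 was exceeded by 21 of the 13308 genes past the filter. Without the WT control array the range was 1.69, between 9.15 and 10.84.

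Cyp4a31 (probe set 17417240) read 6.41 on KO high-fat, 6.50 on WT high-fat, 7.30 on KO control and 8.14 on WT control. Here the high-fat arrays lay within 0.09 of each other, and the control arrays were higher and apart. Its range of 1.73 was exceeded by 55 genes, and without the WT control array it was 0.89.

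The probe set annotated to both Cyp4a10 and Cyp4a31 (17417223) read 10.34 on KO high-fat, 10.22 on WT high-fat, 10.61 on KO control and 11.38 on WT control. The one annotated to both Cyp4a32 and Cyp4a10 (17417255) read 6.96 on KO high-fat, 6.81 on WT high-fat, 7.29 on KO control and 7.54 on WT control. Both had the order of arrays seen for Cyp4a14, with smaller steps, and all 6 Cyp4a probe sets were highest on WT control, as were 28.0% of all genes. Near-identical copies can share probe sequence, so these values and that of Cyp4a31 cannot be given to 1 gene with certainty.

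The Cyp4a12 pair was flatter. Cyp4a12a (probe set 17417180) read 8.35 on KO high-fat, 8.70 on WT high-fat, 8.70 on KO control and 9.03 on WT control. Cyp4a12b (probe set 17417195) read 8.73 on KO high-fat, 9.04 on WT high-fat, 8.74 on KO control and 9.07 on WT control. In Cyp4a12b the 2 KO arrays nearly coincided and so did the 2 WT arrays, with the KO arrays lower. The ranges of 0.68 and 0.34 were exceeded by 893 and 5621 genes. The plot of levels by array shows the 2 shapes side by side.

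**Figure D1:**
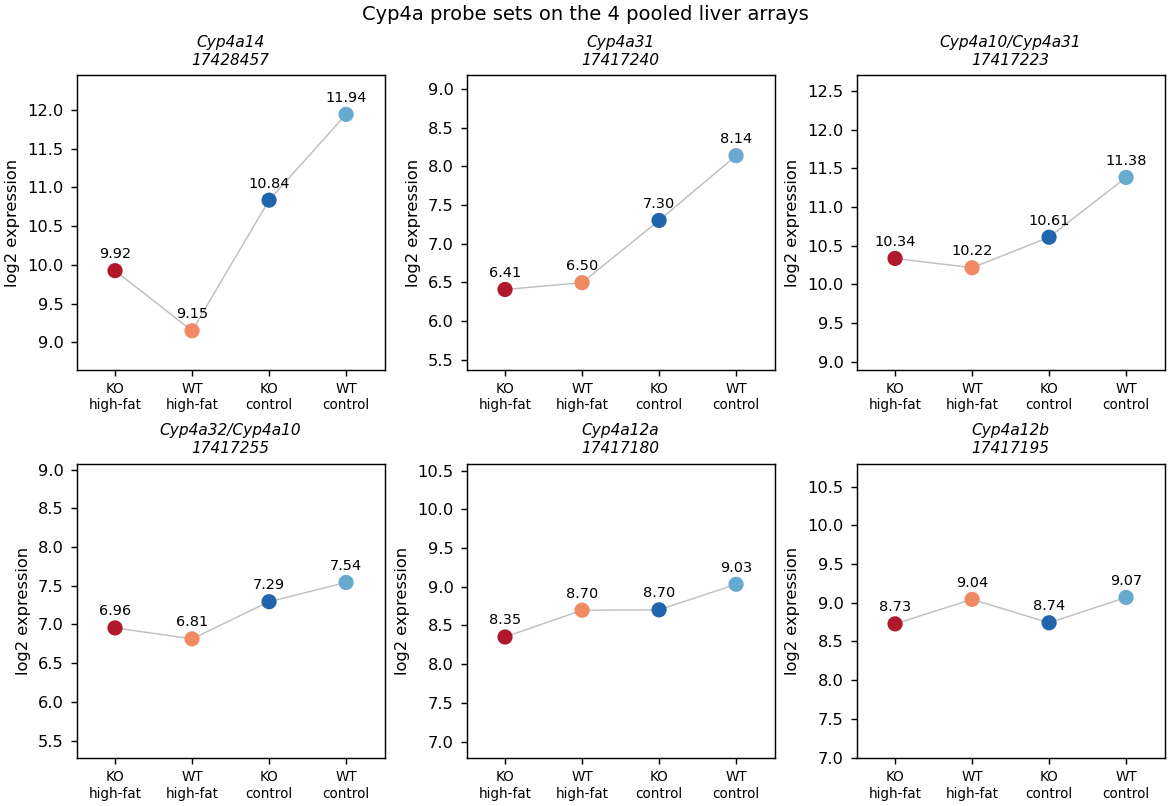
Log2 expression of the 6 Cyp4a probe sets (vertical axis, each panel spans the same number of log2 units) on the 4 pooled arrays (horizontal axis, 1 point per array, with its value printed; the grey line only joins the points). Cyp4a14 spans 2.80 log2 units and Cyp4a12b 0.34, and the WT control array is highest in all 6 panels.

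In RefSeq's GRCm38.p6 annotation the 6 genes lie in a single cluster on chromosome 4, in the order Cyp4a12a, Cyp4a12b, Cyp4a14, Cyp4a10, Cyp4a31 and Cyp4a32. The Cyp4a12 genes are thus at one end, and Cyp4a14, the gene that varied most, stands between them and Cyp4a10. Cyp4a29 and Cyp4a30b, which lie beside the Cyp4a12 genes, read between 2.99 and 3.32 and between 3.10 and 3.38, and did not pass the filter on dim genes.

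PPARalpha binds DNA with a retinoid X receptor on a direct repeat of AGGTCA with 1 base between the copies. Promoter sequence from the RefSeq table (GRCm38.p6, from 250 bases before the start to 50 after it) was given for 1 of the 6 members, Cyp4a32; Cyp4a10, Cyp4a12a, Cyp4a12b, Cyp4a14 and Cyp4a31 are named only. The sequence of Cyp4a32 is shown because no other member had one given. The probe set shared by Cyp4a32 and Cyp4a10 was lower on the high-fat arrays, but its values cannot be given to Cyp4a32 alone. The 250 bases before its start, at chr4:115600688-115600937 on the plus strand, hold no copy of AGGTCA on either strand. The stretch closest to the repeat, in capitals, has 3 mismatches in the 12 fixed bases on the opposite strand and begins at position -97 from the start.

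Cyp4a32: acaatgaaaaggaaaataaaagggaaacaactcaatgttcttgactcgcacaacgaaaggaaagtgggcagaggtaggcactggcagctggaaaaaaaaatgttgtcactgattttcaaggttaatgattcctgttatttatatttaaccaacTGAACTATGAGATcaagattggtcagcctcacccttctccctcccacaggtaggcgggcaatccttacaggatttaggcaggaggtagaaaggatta

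A match this loose is common: 27.3% of 27025 genes held a repeat with up to 3 mismatches in a promoter of this length, on either strand, and 16.3% of 32851 promoters held AGGTCA itself. Such a repeat was present in 15 of 33 other PPARalpha targets with a promoter given and in 5 of 18 peroxisomal oxidation genes. With up to 2 mismatches it was present in 6 of 33 and 3 of 18, beside 4.40% of all genes. The closest matches of these 2 lists, and those of the acyl-CoA thioesterase genes Acot2, Acot3 and Acot4, which differed between arrays as described below, are shown with 8 bases on each side and the matched stretch in capitals, all on the plus strand. They lie at chr6:71199804-71199832 for Fabp1, chr13:91741403-91741431 for Acot12, chr12:84038358-84038386 for Acot4, chr12:84052131-84052159 for Acot3 and chr12:83987795-83987823 for Acot2.

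Fabp1: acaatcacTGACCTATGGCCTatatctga

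Acot12: taggacccTGACCTCTCACCTcctaagca

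Acot4: ccgaagcaTGACCTTTGGCCGgtctgtgc

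Acot3: tccatctcTGACTTCTGCCGTtattagct

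Acot2: gctcagcaAGCACACAGCTCAgtctaagg

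The stretches of Fabp1 and Acot12 have 1 mismatch to the repeat read on the opposite strand, that of Acot4 has 2, and that of Acot3 has 3. The stretch of Acot2 has 3 mismatches to the repeat read on the strand of the gene. Other genes that differed between arrays had no such match. In Acot1, Pdk4, Fgf21, Slc22a5 and Ehhadh the closest stretch had 4 mismatches and is not shown. The genes with the closest letters differed little between arrays: Fabp1, which encodes the liver fatty acid binding protein, had a range of 0.21 and Acot12 a range of 0.13. These are letter matches in a short window and not sites of binding.

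The first comparison was that of high-fat with control diet, within each genotype. The Cyp4a14 value on high-fat diet was 53.2% of that on control diet in KO and 14.4% of that in WT, on a linear scale. These are log2 differences of -0.91 in KO and -2.80 in WT, or 1.88-fold and 6.94-fold lower. In WT it was the 3rd lowest difference of 13308 genes, and in KO the 55th lowest. Cyp4a31 was lower by -0.89 in KO and -1.64 in WT, or 1.86-fold and 3.12-fold lower. The central 95% of all genes lay between -0.52 and 0.57 in KO and between -0.59 and 0.51 in WT.

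Among the shared probe sets, the one for Cyp4a10 and Cyp4a31 differed with diet by -0.27 in KO and -1.17 in WT. The one for Cyp4a32 and Cyp4a10 differed by -0.34 in KO and -0.73 in WT. Both WT differences lay outside the central 95% of genes and both KO differences inside it.

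Cyp4a12a was lower on high-fat diet by -0.35 in KO and -0.33 in WT, inside that range. Cyp4a12b was nearly level, at -0.01 in KO and -0.02 in WT, and these signs turned to 0.01 in KO when arrays were centred on their medians and to 0.01 and 0.02 in WT under cyclic loess and full quantile normalization. At least 2-fold lower on high-fat diet were 0 of the 4 members with their own probe set in KO, where 0.286% of all genes were, and 2 of 4 in WT, where 0.564% were. In either direction 0.609% of all genes were past 2-fold in KO and 1.05% in WT. The members were chosen for differences of this kind, so these counts describe them and nothing is read from them. The median over the 4 members was -0.62 in KO and -0.99 in WT, beside 0.01 and -0.03 over all genes.

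**Figure D2:**
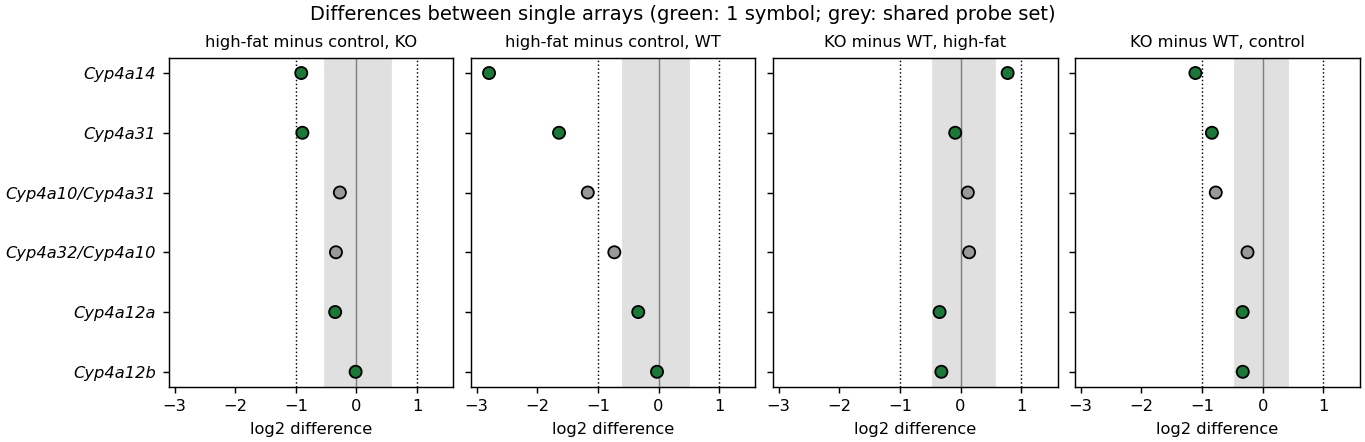
Log2 differences between single arrays (horizontal axis) for the 6 Cyp4a probe sets (rows), in 4 comparisons, with no error because each group has 1 array. Green points are probe sets with 1 symbol, grey points those that name several genes, the grey band is the central 95% of all genes past the filter and dotted lines mark 2-fold; Cyp4a14 and Cyp4a31 lie outside the band in both diet comparisons.

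The second comparison was that of KO with WT, on each diet. On high-fat diet Cyp4a14 was higher in KO by 0.78 (1.71-fold), and 99.4% of genes had a lower difference. On control diet it was lower in KO by -1.11 (2.16-fold), the 16th lowest difference. The 2 genotype differences of Cyp4a14 therefore had opposite signs, and only that on control diet uses the WT control array.

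Cyp4a31 differed by -0.09 on high-fat diet, within the central 95% of genes (-0.46 to 0.56), and by -0.84 on control diet, outside it (-0.45 to 0.41). The probe set of Cyp4a10 and Cyp4a31 differed by 0.12 on high-fat diet and -0.77 on control diet. That of Cyp4a32 and Cyp4a10 differed by 0.14 on high-fat diet and -0.25 on control diet.

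Cyp4a12a was lower in KO by -0.35 on high-fat diet and -0.33 on control diet. Cyp4a12b was lower in KO by -0.32 on high-fat diet and -0.33 on control diet. All 4 differences were within the central 95% of genes, and they kept their sign under the 3 other normalizations tried. With a limit chosen after these values were seen, 104 genes (0.781%) were lower in KO by at least 0.3 on both diets, these 2 among them. The pair lies close together and may share probes, so it does not count as 2 independent readings. At least 2-fold different were 0 of the 4 members on high-fat diet, where 0.391% of all genes were, and 1 of 4 on control diet, Cyp4a14, where 0.503% were.

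The third comparison set the diet difference in KO against that in WT. Cyp4a14 had a difference of differences of 1.89, the KO difference being 32.6% of the WT difference on the log2 scale. For Cyp4a31 it was 0.75, for the probe set of Cyp4a10 and Cyp4a31 0.89, and for that of Cyp4a32 and Cyp4a10 0.39. In these 4 probe sets the diet difference had the same sign in both genotypes and was smaller in KO. For Cyp4a12a it was -0.02 and for Cyp4a12b 0.01, and both signs turned under at least 1 other normalization. Cyp4a14 was the 1 member of 4 with a positive value of at least 2-fold, as had 0.661% of all genes, or 1.22% in either direction. This value draws on all 4 arrays, and the WT diet difference and the control diet genotype difference share the WT control array, so the 3 are not independent.

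**Figure D3:**
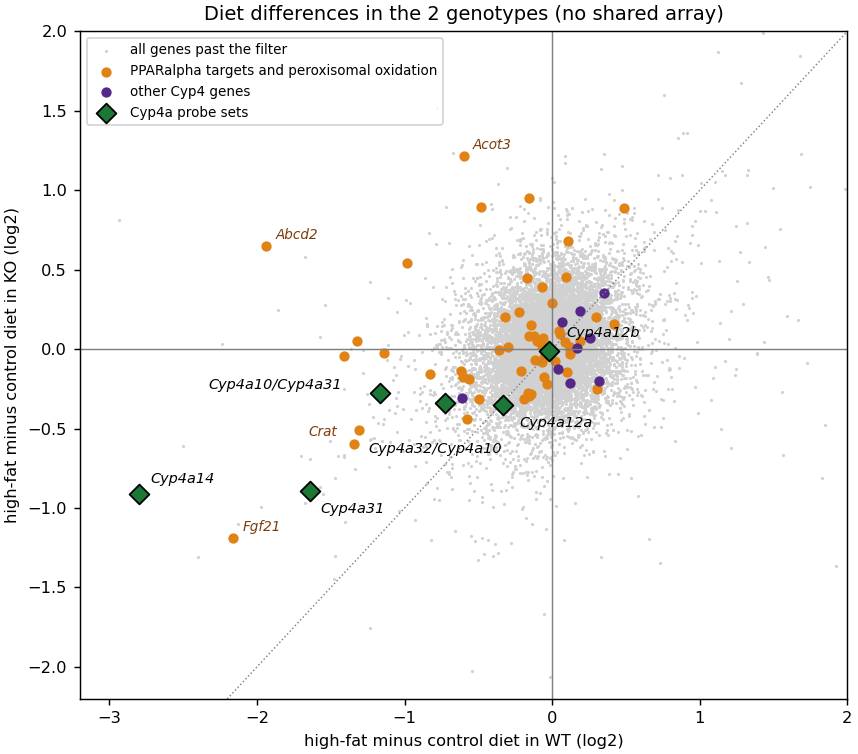
Diet difference in WT (horizontal axis, log2) against diet difference in KO (vertical axis, log2), which share no array, for all genes past the filter (grey), PPARalpha targets and peroxisomal oxidation genes (orange), other Cyp4 genes (purple) and the Cyp4a probe sets (green diamonds); the dotted line marks equal differences and 18 genes lie outside the drawn range. Cyp4a14 and Cyp4a31 lie at -2.80 and -1.64 in WT and at -0.91 and -0.89 in KO, above the dotted line, and Cyp4a12b lies near the origin.

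The genes nearest to Cyp4a14 over the 4 arrays, by Euclidean distance between log2 values centred on each gene's mean, were Tubb2a (0.46), Gstm3 (0.53), Me1 (0.55), Fgf21 (0.60) and Arntl (0.68). Tubb2a encodes a beta-tubulin, Gstm3 a glutathione transferase, Me1 the cytosolic malic enzyme, Fgf21 a liver hormone and Arntl the activator of the circadian clock. Cyp4a31 was the 10th nearest of 13307 genes to Cyp4a14, at 0.87, while Cyp4a12a ranked 839th and Cyp4a12b 5999th. Nearest to Cyp4a31 were Snord83b (0.23), Cyp2c40 (0.29), Mir122 (0.30), Chka (0.32) and Slc22a5 (0.33). Cyp2c40 is a P450 of arachidonic acid, Mir122 the gene of the main hepatocyte microRNA, Chka a choline kinase and Slc22a5 the carnitine transporter. With Pearson correlation in place of distance, over 255 genes with a range of at least 1, none of these 5 remained for Cyp4a14 (0 of 5), and 2 of 5 remained for Cyp4a31. A ranking over 4 arrays is a description of shape only.

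Of 14 other Cyp4 genes 9 passed the filter, and 0 were at least 2-fold different in any of the 4 comparisons between 2 arrays. Of all genes 0.391% to 1.05% were, so nothing is read from this count. Their median diet difference was 0.00 in KO and 0.17 in WT. Cyp4b1, the neighbour of Cyp4a32 in the cluster, came closest to the Cyp4a pattern: it read 6.04 on KO high-fat, 6.11 on WT high-fat, 6.35 on KO control and 6.72 on WT control, with diet differences of -0.31 in KO and -0.61 in WT. Cyp4f17 was lower in KO by -0.71 on high-fat diet and -0.38 on control diet, while Cyp4v3, an omega-hydroxylase of another branch, was higher on high-fat diet by 0.36 in KO and 0.35 in WT. Cyp4f14, Cyp4f15 and Cyp4f13, omega-hydroxylases of leukotrienes and fatty acids, had ranges of 0.17, 0.24 and 0.24.

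The alcohol and aldehyde dehydrogenases that follow omega-hydroxylation, and the P450 electron supply genes, had no gene past 2-fold between any 2 arrays compared. Only 0.391% to 1.05% of all genes were past 2-fold in these comparisons, so nothing is read from this count. Of 9 alcohol and aldehyde dehydrogenase genes 8 were measured, with a median diet difference of 0.19 in KO and 0.06 in WT. Aldh3a2, the fatty aldehyde dehydrogenase, read 9.98 on KO high-fat, 9.80 on WT high-fat, 9.37 on KO control and 9.95 on WT control, so that KO control was the low array and not the high-fat arrays. Aldh1a1, a retinaldehyde dehydrogenase, was higher on high-fat diet by 0.77 in KO and 0.42 in WT. Of the 7 genes of P450 electron supply and haem 6 were measured, with median diet differences of 0.15 in KO and 0.01 in WT. Cyb5b, a cytochrome b5, had the widest range of them, with diet differences of 0.12 in KO and -0.52 in WT. In KO all 6 were higher on high-fat diet, Alas1 most, by 0.43, and in WT 3 were higher and 3 lower.

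Of 26 peroxisomal oxidation genes 23 were measured, and their median diet difference was 0.04 in KO and -0.06 in WT, beside 0.01 and -0.03 over all genes. At least 2-fold lower on high-fat diet in KO were 0 of 23, beside 0.286% of all genes. In WT 3 of 23 were, beside 0.564%. These were Abcd2, an importer of very long chain fatty acids, Crat, the carnitine acetyltransferase, and Ehhadh, the bifunctional enzyme that also handles dicarboxylic acids. Ehhadh read 9.39 on KO high-fat, 9.12 on WT high-fat, 9.41 on KO control and 10.26 on WT control, so 3 arrays were close and WT control was higher. Crat differed with diet by -0.51 in KO and -1.31 in WT. Abcd2 differed by 0.65 in KO and -1.94 in WT. Acot4, a peroxisomal thioesterase of dicarboxylic acids, was higher on high-fat diet by 0.95 in KO and differed by -0.16 in WT.

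Of 38 other PPARalpha targets 33 were measured. On high-fat against control diet 19 were lower in KO, with a median of -0.05, and 27 were lower in WT, with a median of -0.15. The medians over all genes were 0.01 in KO and -0.03 in WT. At least 2-fold lower were 1 of 33 in KO (Fgf21), beside 0.286% of all genes. In WT 4 of 33 were (Fgf21, Acot1, Slc22a5 and Pdk4), beside 0.564%. Acot3 was at least 2-fold higher in KO, as were 0.323% of all genes. Fgf21 read 5.14 on KO high-fat, 5.16 on WT high-fat, 6.32 on KO control and 7.31 on WT control, the same order of diets as Cyp4a31 in both genotypes. Pdk4, which restrains glucose oxidation, read 5.23 on KO high-fat, 5.46 on WT high-fat, 5.18 on KO control and 6.78 on WT control. Pdk4 and Acot1 were thus high on the WT control array alone and differed with diet in KO by 0.05 and -0.04. Slc22a5 differed with diet by -0.60 in KO and -1.34 in WT. Slc22a5 and Fgf21, like Cyp4a14 and Cyp4a31, were thus lower on high-fat diet in KO too.

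In KO against WT on high-fat diet, 16 of 33 targets were lower, with a median of 0.03 beside 0.02 over all genes. The target median turned to -0.03 under cyclic loess and to -0.01 under full quantile normalization. On control diet 29 of 33 were lower, with a median of -0.26 beside -0.02 over all genes. At least 2-fold lower in KO on control diet were 4 of 33, where 0.158% of all genes were: Pdk4 by -1.60, Acot3 by -1.56, Acot1 by -1.20 and Acot2 by -1.07. The thioesterases Acot2 and Acot3 were higher on high-fat diet in KO by 0.54 and 1.21, the opposite sign to Cyp4a14. The difference of the diet differences was positive for 25 of 33 targets, with a median of 0.30 beside 0.04 over all genes. The shares of all genes with each sign were not counted. 

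**Figure D4:**
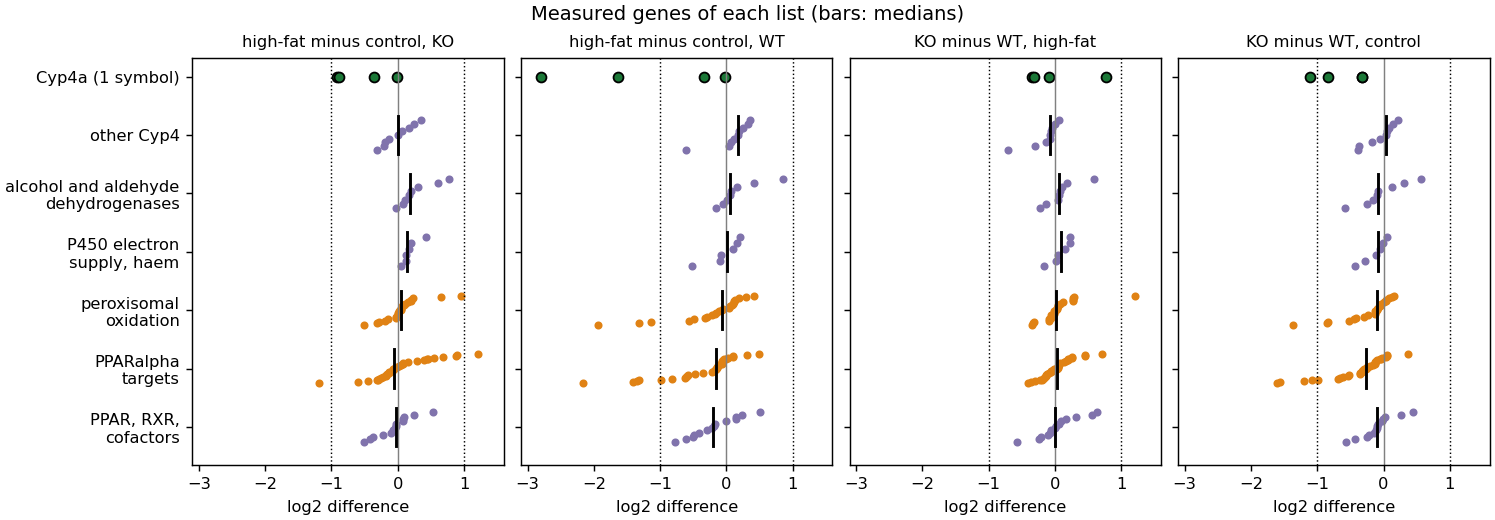
Log2 differences between 2 arrays (horizontal axis) for the 4 Cyp4a genes with their own probe set (green) and the measured genes of 6 lists (rows; orange for PPARalpha targets and peroxisomal oxidation, purple for the others; 1 point per gene, bars at medians), in 4 comparisons, with dotted lines at 2-fold. In WT the lowest Cyp4a value, -2.80, lies beyond the lowest PPARalpha target, -2.16, and all list medians lie between -0.26 and 0.19.

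Ppara, the receptor gene itself, read 8.91 on KO high-fat, 8.99 on WT high-fat, 8.83 on KO control and 8.85 on WT control. Of 16 receptor and cofactor genes 14 were measured, with 0 at least 2-fold different between 2 arrays, beside 0.391% to 1.05% of all genes. Their median diet differences were -0.03 in KO and -0.21 in WT. Ppargc1a, a coactivator of PPARalpha, differed with diet by -0.02 in KO and -0.77 in WT. Rxra, the partner receptor, differed by -0.41 in KO and -0.29 in WT. Pparg, the receptor best known from fat cells, read 5.02 on KO high-fat, 4.46 on WT high-fat, 4.50 on KO control and 5.07 on WT control. Ppard, a widely expressed receptor of the family, read 4.49 on KO high-fat, 5.06 on WT high-fat, 5.00 on KO control and 4.55 on WT control. Their diet differences had opposite signs in the 2 genotypes, 0.53 in KO and -0.61 in WT for Pparg and -0.51 in KO and 0.51 in WT for Ppard. The difference of differences was past 2-fold for both, at 1.13 and -1.01, as it was for 1.22% of all genes. The value of Ppard lies near the limit. Transcript levels of a receptor do not measure its activity.

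Among 21 genes of other arachidonic acid P450s, hydrolases and oxygenases, 18 were measured. The epoxygenase gene Cyp2c38 read 9.24 on KO high-fat, 7.59 on WT high-fat, 8.43 on KO control and 10.53 on WT control, with the WT arrays at both ends. Cyp2c40 differed with diet by -0.69 in KO and -1.64 in WT, close to the values of Cyp4a31, and Cyp2j9 by 0.42 in KO and -1.23 in WT. Cyp2c54 was higher on high-fat diet by 0.68 in KO and 0.83 in WT. At least 2-fold lower with diet in WT were 3 of 18 (Cyp2c38, Cyp2c40 and Cyp2j9), beside 0.564% of all genes. The list's median there was 0.01, beside -0.03 over all genes.

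Because Cyp4a12a and Cyp4a12b are male-biased genes and the labels used here give no sex, sex-linked transcripts were read. Xist, from the inactive X chromosome, read between 3.07 and 3.23 and did not pass the filter on dim genes. The Y-linked genes passed it: Eif2s3y read between 7.67 and 8.23, Uty between 6.38 and 7.30 and Kdm5d between 4.82 and 5.67. Male-biased genes, 20 of 20 measured, had medians of -0.06 in KO against WT on high-fat diet and 0.05 on control diet, with 12 of 20 lower in KO on high-fat diet and 7 of 20 on control diet. Ugt2b38, a glucuronosyltransferase, differed between KO and WT by -0.75 on high-fat diet and 0.44 on control diet. Elovl3, a fatty acid elongase, was lower on high-fat diet by -0.81 in KO and -1.47 in WT, and Susd4, at least 2-fold higher on that diet in WT as were 0.488% of all genes, was higher by 0.43 in KO and 1.25 in WT.

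Of 28 female-biased genes 14 were measured. On control diet 7 of 14 were at least 2-fold lower in KO, as were 0.158% of all genes. The median of the 14 was -0.96, beside -0.02 over all genes. Examples of this control diet difference are Cyp2b9 with -3.77, Slc22a26 with -2.08, Cyp2b13 with -2.02, Acss3 with -1.35 and Cyp2a4 with -1.09, while Cyp17a1 was higher by 0.79. Of the 24 with a probe set, 14 past the filter and the rest dim, 9 were highest on WT control and 7 on KO high-fat. Of all genes past the filter 28.0% were highest on WT control. The share highest on KO high-fat was not counted. On high-fat diet the median was 0.32. The list shares Abcd2 and Cyp2c38 with those above. Of 12 measured growth hormone signalling genes Socs2, a feedback inhibitor induced by the hormone, differed most and read 5.93 on KO high-fat, 5.44 on WT high-fat, 5.68 on KO control and 7.30 on WT control; Bcl6, a repressor of female-biased genes, read between 7.38 and 7.70 on the other 3 arrays, against 6.53 on WT control. The part of these values in the Cyp4a14 value of the WT control array was not tested.

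Acute phase genes are those that liver expresses more in inflammation. All 26 measured genes were higher in KO than in WT on control diet, with a median of 0.48 beside -0.02 over all genes. At least 2-fold higher were 9 of them, as were 0.346% of all genes. Saa2, a serum amyloid gene, read 10.83 on KO high-fat, 10.73 on WT high-fat, 12.34 on KO control and 4.97 on WT control. Lcn2, Mt2, Mt1, Saa3 and Orm2 were also lowest on WT control. In KO, 21 of 26 acute phase genes were lower on high-fat diet, with a median of -0.25 beside 0.01 over all genes. The shares of all genes with each sign in a comparison were not counted, here or for the other lists. The part of the acute phase values in the Cyp4a differences was not tested.

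Circadian clock genes were listed after the data were seen, because Arntl was among the nearest to Cyp4a14; 15 of 18 were measured. Arntl read 4.62 on KO high-fat, 3.95 on WT high-fat, 5.62 on KO control and 5.92 on WT control, the order of arrays of Cyp4a14. Per3 was higher on high-fat diet by 0.77 in KO and 1.24 in WT, Ciart by 0.94 and 1.08 and Dbp by 0.55 and 0.88. The time of day of collection is not given in the sources used here, and its part in the Cyp4a differences was not tested.

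Markers of other cells gave these values. Exocrine pancreas markers were higher on high-fat diet in 13 of 13 measured genes in both genotypes, with medians of 1.04 in KO and 2.19 in WT, and skeletal muscle markers, 6 of 10 measured, averaged highest on WT high-fat, with a mean of 4.74 over 10 markers against 3.62 to 3.79 on the other arrays. Kidney, the other main site of Cyp4a expression, had 5 of 12 markers past the filter, and the 11 with a probe set averaged 3.36 on KO high-fat, 3.42 on WT high-fat, 3.45 on KO control and 3.42 on WT control; Kap, Slc34a1, Umod, Slc12a1, Lrp2 and Cdh16 were among the dim genes. For adipose, Kupffer cell and macrophage, sinusoidal endothelial, stellate, cholangiocyte, T and NK, and B and plasma cell markers the medians of the differences between 2 arrays lay between -0.26 and 0.26. The hepatocyte markers had median diet differences of -0.03 in KO and -0.02 in WT. The part of pancreas and muscle RNA in the Cyp4a values was not tested.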

How the data were processed

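Liver RNA pools were hybridised to 4 Affymetrix gene arrays, 1 per group. The authors deposited log2 expression values per probe set, and per the submitters' processing notes they come from RMA, run in Affymetrix Expression Console with no version named. RMA equalises array brightness and compresses dim differences; the arrays' medians lay between 3.53 and 3.56. Detection calls and scanner files were not used, so signal over background is unknown; the number of arrays limits the precision.

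Of 41345 probe sets 23521 had 1 symbol in the platform annotation, 1814 several and 16010 none. Each gene was read from the probe set with 1 symbol and the highest mean; genes below the 40th percentile of means (3.47) were left out of counts over all genes. Differences are subtractions between single arrays, counted at 2-fold. The named genes are the members, up to 4 genes per list with the widest range, any past 2-fold, the 5 nearest genes, sex-linked genes and Myd88; a few others (Fabp1, Acot12, Ppara, Rxra and genes given as background) were named after their values were seen. Members and 25 lists were chosen with earlier results of these data known, the clock list after them. Python 3.11.15, pandas 2.3.3 and limma 3.58.1 (other normalizations) were used; the counting steps were tested on simulated data. Alternatives were cyclic loess, full quantile normalization, median centring, averaged probe sets, other filters and a 1.5-fold limit. Sequences come from the RefSeq promoter table (GRCm38.p6).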

Additional observations from a re-analysis of the deposited data

Results flagged for a closer look

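In 3 of the 6 Cyp4a probe sets the KO array lay above the WT array on high-fat diet and below it on control diet. The values were 0.78 and -1.11 for Cyp4a14, 0.12 and -0.77 for the probe set of Cyp4a10 and Cyp4a31, and 0.14 and -0.25 for that of Cyp4a32 and Cyp4a10. Only Cyp4a14 lay outside the central 95% of genes on both diets (-0.46 to 0.56 on high-fat, -0.45 to 0.41 on control). The other 2 probe sets both name Cyp4a10. The share of all genes with such opposite signs was not counted. Outside the family, genes named above whose differences had opposite signs and were at least 2-fold in both were Abcd2 and Cyp2c38, with 1.21 and 1.65 on high-fat diet and -1.37 and -2.09 on control diet. For the diet difference they were Cyp2b9, with 3.32 in KO and -1.44 in WT, Saa2, with -1.52 in KO and 5.76 in WT, and Orm2, with -1.36 in KO and 1.92 in WT. With 1 array per group these opposite signs were not tested.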

How the results depend on the processing

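Under cyclic loess, full quantile normalization, median centring and averaged probe sets, the number of Cyp4a genes at least 2-fold different kept its value in each of the 5 differences. Cyp4a14 stayed between -2.80 and -2.77 for diet in WT, -0.94 and -0.89 for diet in KO, 0.73 and 0.80 for KO against WT on high-fat diet and -1.12 and -1.09 on control diet. With a 1.5-fold limit the members counted were 2 for diet in KO, 1 for genotype on high-fat diet, 2 on control diet and 2 for the difference of differences, and all genes counted were 533 for diet in KO, 560 for diet in WT, 413 for genotype on high-fat diet, 235 on control diet and 1096 for the difference of differences; the wider limit itself admits more genes. Counting the 2 shared probe sets with the members, chosen after the data were seen, moved the median diet difference in KO to -0.34, turned the median genotype difference on high-fat diet to 0.02, moved the median difference of differences to 0.57 and raised the members at least 2-fold different for diet in WT to 3. The filter on dim genes does not touch the members. No paired analysis was possible because each group has 1 array. No replicate could be left out, and the WT control array enters 3 of the 5 differences of each member.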
